A study of Homo sapiens with 2 samples.

Results

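The genes described here are the microRNA (MIR) genes of a crowded stretch of chromosome 19, measured in MDA-MB-231 cells, an established line of breast cancer cells with mesenchymal features. They were taken as all MIR genes of the platform's probe-to-gene table that RefSeq places on chromosome 19 between 53660000 and 53800000 (GRCh38), with no filter on signal. RefSeq lists 50 MIR genes there and 46 of them had a named transcript cluster, the array's unit of measurement, out of 1072 MIR genes and 14884 named genes in all. MIR512-1, MIR515-2, MIR520B and MIR371B had none. Of the 46 genes, 43 belong to the primate microRNA cluster called C19MC, and the other 3, MIR371A, MIR372 and MIR373, form a separate small cluster at the far end of the window. The remaining 1026 MIR genes served as background.

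The cells received either an antagomir against miR-544, an oligonucleotide that blocks this microRNA, or compound 1, for 24 hours before 5 days in hypoxia at less than 1% oxygen. Each treatment was hybridised as 1 array of pooled RNA, and no untreated or normoxic array was analysed here. The series text speaks of 3 samples that were pooled, without saying if each treatment had 3 cultures. With 1 array per treatment no difference has a replicate error or a test, and treatment cannot be told apart from pool or hybridisation. Of the 8 named markers of this cell line, 7 were above the median of all clusters on both arrays. Among these were the receptor tyrosine kinase gene AXL (12.78 and 12.77) and the intermediate filament gene VIM (10.61 and 10.49). S100A4 was below the median (5.17 and 5.21). Of all protein-coding genes, 78.7% and 79.0% reached the median on the antagomir and compound 1 arrays, so the count alone does little to identify the line.

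C19MC is a tandem array of related microRNA genes found in primates. It is imprinted, read from the paternal copy mainly in placenta and in early embryonic cells, and silent in most adult tissues; its hairpins are cut out of the introns of a long non-coding RNA by the Microprocessor, the complex of DROSHA and DGCR8. The neighbouring miR-371 to miR-373 genes are likewise known from embryonic stem cells and germ cell tumours. A mature microRNA finds its target messenger RNAs mainly through its seed, bases 2 to 8 from the 5′ end, so genes with 1 seed are read as 1 family.

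RefSeq (GRCh38.p14) gave hairpin sequences for 43 of the 46 genes, not for MIR498, MIR520F and MIR517A, and 80 mature entries from 45 genes, with 59 distinct mature sequences and 38 distinct seeds. The hairpins resembled each other, with a median identity of 75.9% over 903 pairs and a highest identity of 98.9%. Seeds that recur through the window are given here in capitals, 5′ to 3′, because the order of the results follows them. The first 7 lines hold the letters AAGUGC in the seed or next to it and resemble the seeds of the miR-302 and miR-17 families; the others are seeds that no other measured MIR gene with a RefSeq mature entry carries.
hsa-miR-372-3p: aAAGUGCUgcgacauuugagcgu
hsa-miR-373-3p: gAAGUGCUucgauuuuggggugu
hsa-miR-520c-3p: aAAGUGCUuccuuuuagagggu
hsa-miR-519a-3p: aAAGUGCAuccuuuuagagugu
hsa-miR-519d-3p: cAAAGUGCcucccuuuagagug
hsa-miR-526b-3p: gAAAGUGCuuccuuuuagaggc
hsa-miR-520g-3p: aCAAAGUGcuucccuuuagagugu
hsa-miR-518d-3p: cAAAGCGCuucccuuuggagc
hsa-miR-518a-3p: gAAAGCGCuucccuuugcugga
hsa-miR-517a-3p: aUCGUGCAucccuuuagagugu
hsa-miR-521: aACGCACUucccuuuagagugu
hsa-miR-516a-3p: uGCUUCCUuucagagggu
hsa-miR-518d-5p: cUCUAGAGggaagcacuuucug
hsa-miR-522-5p: cUCUAGAGggaagcgcuuucug

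Signals of the 46 genes were low on both arrays. On the deposited log2 scale they ran from 1.32 to 6.16 after antagomir, with a median of 3.76, and from 1.39 to 6.68 after compound 1, with a median of 3.79. The other MIR genes had medians of 4.65 and 4.68, and protein-coding genes 7.08 and 7.04. Of the 46 genes, 2 with the antagomir and 3 with compound 1 reached the median of all clusters (5.59 and 5.62), against 34.6% and 35% of the other MIR genes. Each cluster has its own probes, so a higher signal in 1 gene than in another is not a measure of more RNA, and no background level comes with the table that would separate a low signal from none. The labels do not say which part of a hairpin or of its host transcript the probes cover.

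**Figure D1:**
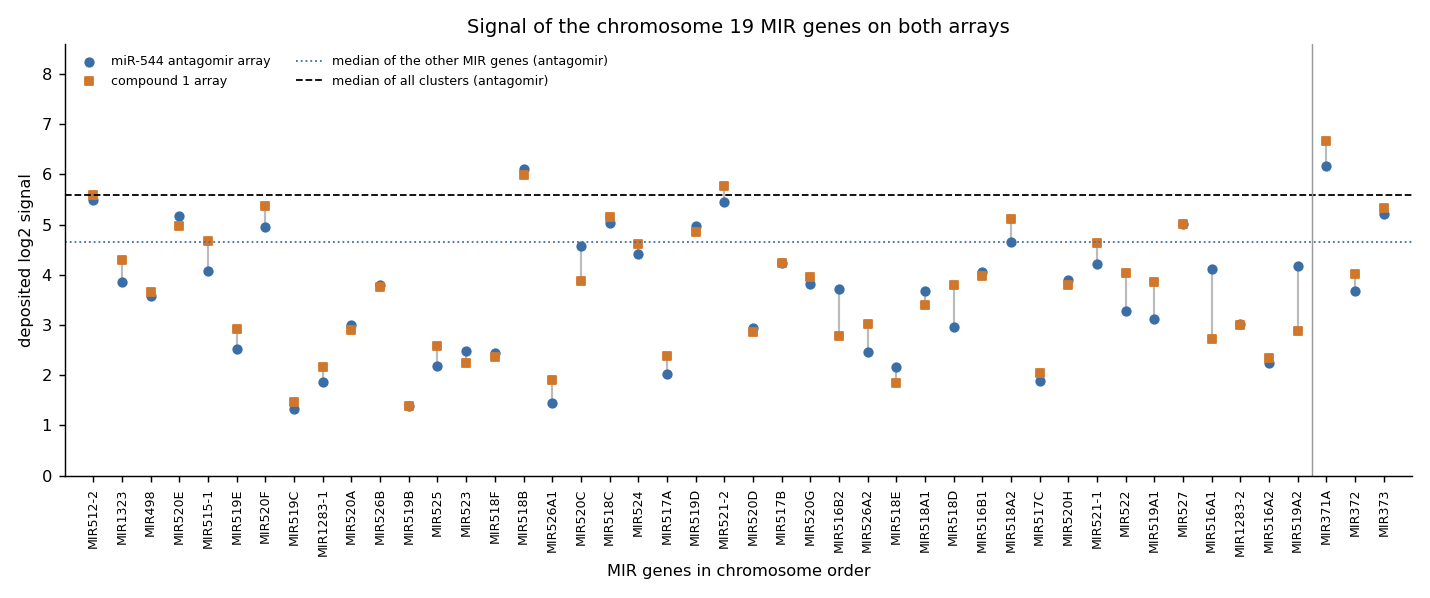
Deposited log2 signal of the 46 MIR genes in chromosome order, with the antagomir array as circles and the compound 1 array as squares; the dashed line is the antagomir array's median over all clusters (5.59), the dotted line that of the other MIR genes (4.65), and the grey upright line separates C19MC from MIR371A, MIR372 and MIR373. Nearly all genes lie under the dashed line on both arrays.

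By its brighter cluster, MIR371A had the highest signal of the window at 6.16 after antagomir and 6.68 after compound 1. MIR371A makes a microRNA of the embryonic miR-371 to miR-373 group. The clusters given for the other genes are numbered in chromosome order, and this cluster is numbered outside that run. The other cluster of MIR371A, numbered within the run, read 5.62 and 5.89, less than MIR518B. Which locus or strand the brighter cluster covers was not tested. MIR518B followed at 6.11 and 5.98. MIR521-2 lay at 5.45 and 5.77 and so passed the array median on the compound 1 array only. MIR512-2, the first measured gene of C19MC, lay just under the median at 5.49 and 5.60. The next genes were MIR373 (5.21 and 5.34), MIR520F (4.95 and 5.37), MIR518C (5.04 and 5.16) and MIR520E (5.16 and 4.98). At the lower end stood MIR519B (1.39 on both arrays), MIR519C (1.32 and 1.47), MIR526A1 (1.45 and 1.90), MIR517C (1.89 and 2.05) and MIR518E (2.17 and 1.85). MIR519B and MIR519C lay within the lowest 2% of the other MIR genes, while the brighter cluster of MIR371A lay at their percentiles of 73.3 and 80.2. The order of the genes was much the same on both arrays (Spearman's rho = 0.916 over the 46 genes and 0.980 over the other MIR genes). Pearson's r of the signals was 0.936 and 0.983. These correlations are across genes, whose probes are the same on both arrays.

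Base composition moved with these signals. Hairpin GC content was 39.3% to 54.1% in the window, with a median of 44.8%, and 21.1% to 80% in the 841 other MIR genes with a hairpin, with a median of 48.7%. Among those genes the signal went with GC content (Spearman's rho = 0.704), from a median of 2.13 on the antagomir array below 35% GC to 7.0 at 60% and above. In the window rho was 0.326 over 43 genes. The 394 other MIR genes within the same GC range had medians of 4.17 and 4.25, between those of the window and those of all other MIR genes, and 23.1% and 22.8% of them reached the array median. In the class from 40% to 45% GC, which holds 25 genes of the window, the window's median on the antagomir array was 3.81 and that of 145 other MIR genes 3.25. From 45% to 50% the order was the opposite, 3.69 for 13 genes against 4.51 for 125. The window was again higher from 50% to 55%, with 5.35 for 4 genes against 5.12 for 138. Its 1 gene from 35% to 40% read 2.53 against 2.86 for 98. How far base composition sets the low signal of the window was not tested.

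**Figure D2:**
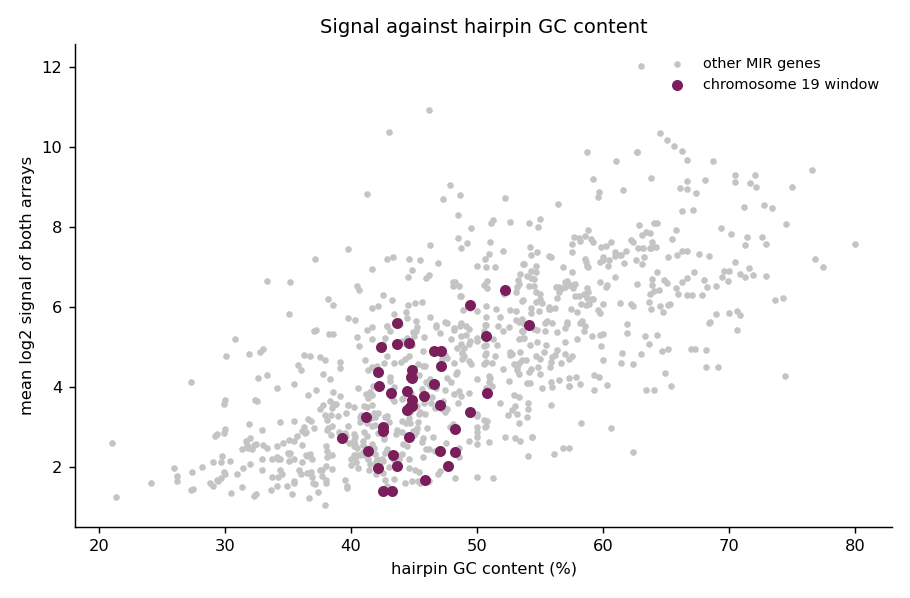
Mean log2 signal of both arrays (vertical axis) against hairpin GC content in percent (horizontal axis), for 43 genes of the window (large points) and 841 other MIR genes (small points). The window's genes fill a narrow band from 39.3% to 54.1% GC, within the cloud of the other genes.

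The 50 measured MIR genes of the imprinted 14q32 cluster had medians of 3.67 and 3.70, and 22% of them reached the array median on each array; their median GC content was 41.7%. The 13 measured genes of the X-linked MIR506 to MIR514 group, which is known from testis, had medians of 2.74 and 3.08. By contrast the other 33 MIR genes of chromosome 19 stood at 6.46 and 6.59, with a median GC content of 59.3%. Of 21 listed MIR genes and hosts that are often high in carcinoma lines 15 were measured, and 8 of these were above the array median on both arrays. The oncogenic MIR21 had 8.87 and 8.73, and MIR221 had 8.73 and 8.65, above all genes of the window, yet MIR125B1 (2.49 and 2.78) and MIR100 (4.22 and 4.16) of the same list lay among the C19MC genes. In this list 7 were higher with compound 1 and 8 lower, and MIR29A (5.36 and 4.40) and MIRLET7A2 (6.01 and 5.33) were lower past 1.5-fold.

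**Figure D3:**
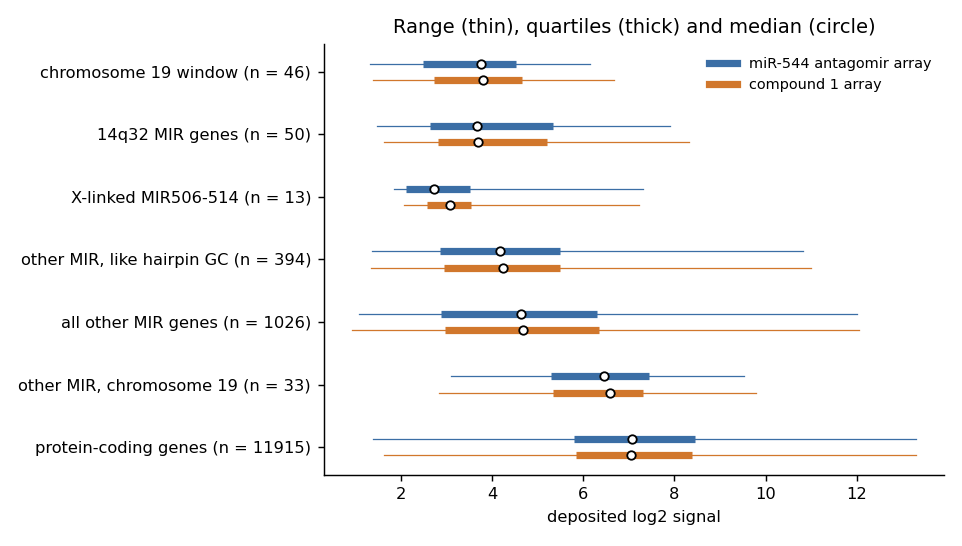
Deposited log2 signal (horizontal axis) of the 46 genes of the window and of 6 other gene groups, with the antagomir array above the compound 1 array in each pair; thin lines give the range, thick lines the quartiles and circles the median. The window and the 14q32 genes have like medians (3.76 and 3.67 on the antagomir array), and the other MIR genes of chromosome 19 lie higher at 6.46.

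Between the arrays the window as a group differed little. The median difference, compound 1 minus antagomir, was 0.12 on the log2 scale, beside 0.082 over the other MIR genes and -0.0093 over all named genes. Of the 46 genes 26 were higher on the compound 1 array, 17 were lower and 3 had identical values, while 60.2% of the other MIR genes were higher and 36.2% lower. Past 1.5-fold, 4 genes were higher and 4 lower, or 8.7% each. The background past 1.5-fold was 7.31% higher and 4.19% lower among the other MIR genes (75 and 43 genes; 62 and 64 after cyclic loess), and 1.36% and 0.907% among all named genes. Past 2-fold, 0 genes of the window were higher and 2 lower (4.35%), against 1.75% and 0.877% of the other MIR genes and 0.195% and 0.101% of all named genes. The share of the other MIR genes past 1.5-fold in either direction varied with the mean signal. It was 10.99% (10 of 91 genes) below 2, 23.5% from 2 to 3, 16.3% from 3 to 4, 12.9% from 4 to 5, 8.18% from 5 to 6 and 3.03% at 6 or above. In the window 6 of the 13 genes from 3 to 4 lay past 1.5-fold and 2 of the 9 from 4 to 5, and 0 in the other classes, which hold 4 genes below 2, 11 from 2 to 3, 7 from 5 to 6 and 2 above.

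**Figure D4:**
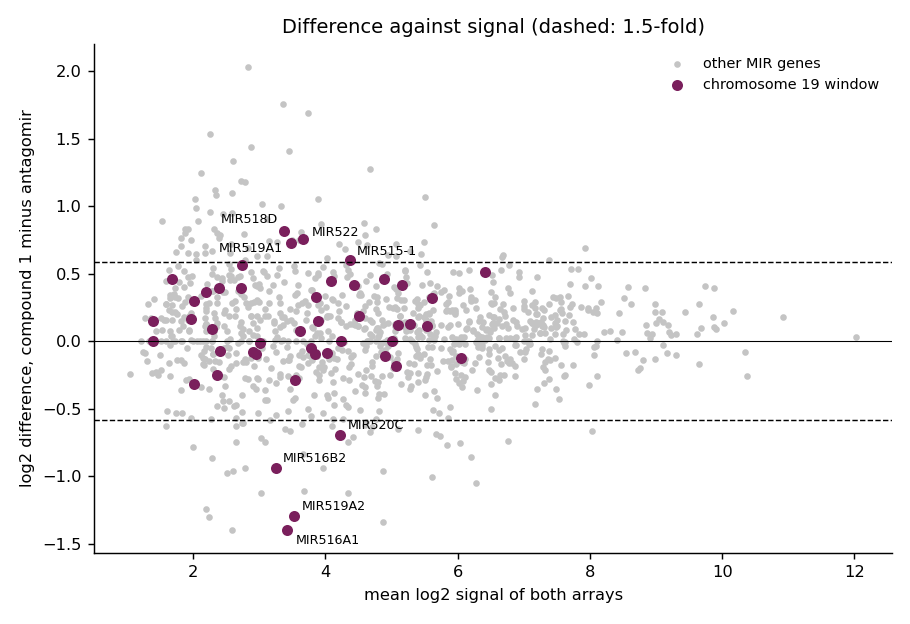
Log2 difference, compound 1 minus antagomir (vertical axis), against the mean log2 signal of both arrays (horizontal axis), for the 46 genes of the window (large points) and the other MIR genes (small points); dashed lines mark 1.5-fold. The 8 named genes past 1.5-fold have mean signals between 3.25 and 4.37, and the lowest differences in the window and among the other MIR genes were both -1.39.

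MIR516A1 had the largest difference in the window. Its signal was 4.12 with the antagomir and 2.72 with compound 1, 2.63-fold lower, with a log2 difference of -1.39. MIR519A2 was next at 4.17 and 2.88 (-1.29). The other cluster named for it, however, read 2.47 on both arrays, a difference of 0, and the mean of both gives -0.65. The call thus holds for 1 of its 2 named clusters only. By its number the other cluster falls between those of MIR518F and MIR518B, away from MIR519A2. Whether it measures MIR519A2 was not tested. MIR516B2 was lower at 3.72 and 2.78 (-0.94), and MIR520C, a gene of the AAGUGCU seed, at 4.57 and 3.88 (-0.69). MIR518E (-0.32) and MIR518A1 (-0.29) followed within 1.5-fold.

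Higher on the compound 1 array were MIR518D, at 2.97 with the antagomir and 3.79 with compound 1 (0.82), MIR522 at 3.29 and 4.04 (0.76), MIR519A1 at 3.12 and 3.85 (0.73), and MIR515-1 at 4.07 and 4.67 (0.60). The last of these fell inside 1.5-fold under each of the 3 other scalings (0.57 after centring, 0.55 after quantile normalization and 0.52 after cyclic loess). MIR526A2 (0.56) and MIR371A (0.52) came next; the second cluster of MIR371A differed by 0.26. For scale, the robust SD of the difference among the 200 other MIR genes nearest in signal was 0.38 at MIR516A1, 0.39 at MIR518D and 0.25 at MIR371A. MIR516A1 thus lay over 3 of these SDs from 0, and so did MIR519A2; this describes a spread between genes and not between replicates. Differences of the other MIR genes ran from -1.39 to 2.03.

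Of the genes past 1.5-fold, MIR522 and MIR519A1, both higher, are the one pair of neighbours. They are followed in chromosome order by MIR527, with 5.01 on both arrays, and then by MIR516A1, which was lower. After MIR1283-2 (3.01 and 3.00) and MIR516A2 (2.24 and 2.34), C19MC ends with MIR519A2, lower again. Along C19MC the median difference was 0.11 over the first 15 genes, 0.062 over the middle 14 and 0.047 over the last 14. Of the 8 genes past 1.5-fold, 1 is in the first stretch, 2 in the middle and 5 in the last.

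Copies with nearly the same hairpin often read differently. MIR516A1 (chr19:53756741-53756830, plus strand) and MIR516A2 (chr19:53761133-53761222, plus strand) differ by 1 base over 90 bases. MIR519A1 (chr19:53752397-53752481, plus strand) and MIR519A2 (chr19:53762344-53762430, plus strand) differ by 5, counting the flanking bases at both ends. Both pairs are printed because, among the pairs within 5 bases, their copies differed most between the arrays, with the bases that differ within each pair in capitals.
MIR516A1: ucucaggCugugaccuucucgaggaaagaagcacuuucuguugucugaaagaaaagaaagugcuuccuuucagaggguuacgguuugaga
MIR516A2: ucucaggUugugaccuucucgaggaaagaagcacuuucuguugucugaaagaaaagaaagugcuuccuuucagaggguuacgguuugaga
MIR519A1: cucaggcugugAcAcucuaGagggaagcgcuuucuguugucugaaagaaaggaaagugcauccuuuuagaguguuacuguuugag
MIR519A2: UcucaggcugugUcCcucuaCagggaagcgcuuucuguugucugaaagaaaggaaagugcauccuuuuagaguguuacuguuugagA

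MIR516A1 read 4.12 and 2.72 while MIR516A2 stood at 2.24 and 2.34, a difference of 0.094. MIR519A1 was higher by 0.73 on the compound 1 array where MIR519A2 was lower by 1.29 on the log2 scale, although both encode the same miR-519a-3p. MIR518A1 and MIR518A2, 4 bases apart and with the same mature products, differed by -0.29 (3.69 and 3.40) and 0.46 (4.66 and 5.12). MIR520G (0.15) and MIR520H (-0.095), 3 bases apart, read alike at 3.81 and 3.96 against 3.89 and 3.80. MIR521-1 (4.22 and 4.64) and MIR521-2 (5.45 and 5.77) had like differences, 0.42 and 0.32, at unlike signals.

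Among the 6 pairs of the window within 5 bases of each other, 4 had differences of opposite sign, and the median gap between their differences was 0.52. Opposite signs were found in 15 of 32 pairs 6 to 10 bases apart (median gap 0.55), in 170 of 374 pairs 11 to 20 bases apart (0.45) and in 202 of 491 pairs further apart (0.33). Pairs of the other MIR genes within 5 bases numbered 10, of which 4 had opposite signs, with a median gap of 0.43. MIR1283-1 (0.30) and MIR1283-2 (-0.015) differed by 6 bases, and MIR516B1 (-0.086) and MIR516B2 (-0.94) by 8. Values of such copies are uncertain, since the labels do not say how the probes of each copy were chosen. MIR512-2 and MIR515-1 each had 2 clusters with the same pair of values, which count as 1 measurement. MIR517B shared its 4.24 on both arrays with a cluster named for the receptor gene FPR2, and MIR526A1 shared its pair of values with 4 unnamed clusters.

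**Figure D5:**
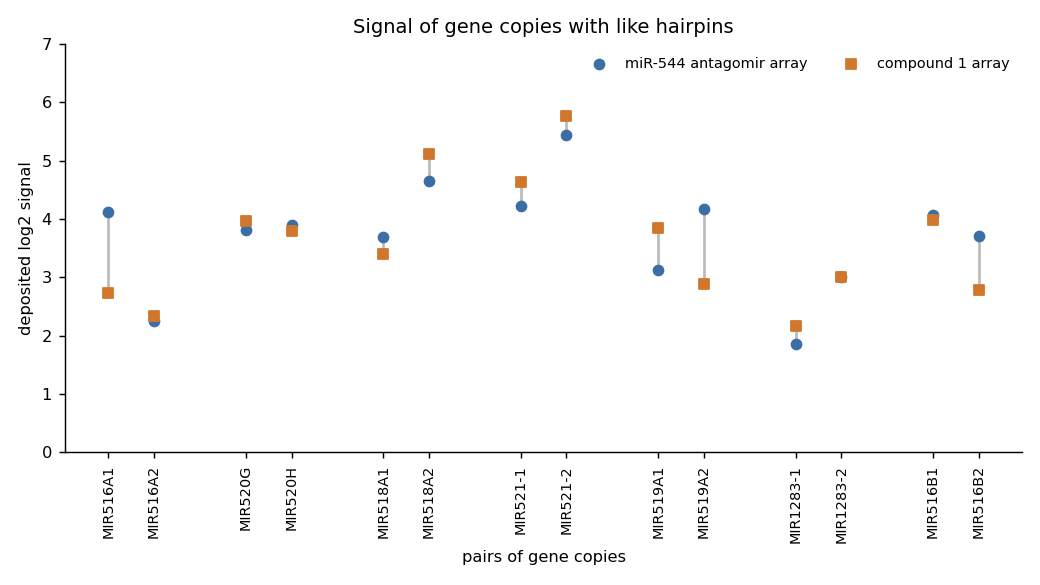
Deposited log2 signal (vertical axis) of 7 pairs of gene copies with like hairpins, with the antagomir array as circles and the compound 1 array as squares. MIR516A1 and MIR519A2 are lower on the compound 1 array by 1.39 and 1.29, while their partners MIR516A2 and MIR519A1 differ by 0.094 and 0.73.

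By seed, the largest family was UCUAGAG, a 5p seed of 11 genes. Its signals ran from 1.32 to 4.57 with the antagomir and from 1.39 to 4.04 with compound 1; 6 genes were higher with the latter (among them MIR518D, MIR522, MIR519A1 and MIR526A2), 4 lower (MIR520C, MIR518E, MIR523 and MIR518F) and MIR519B was the same on both. Their median difference was 0.15. MIR526A1, MIR520C, MIR526A2 and MIR518D encode 1 and the same mature 5p sequence, with differences of 0.46, -0.69, 0.56 and 0.82. The family AAAGCGC, a 3p seed of 6 genes, had 4 higher and 2 lower with a median of 0.29, from MIR518B at 6.11 and 5.98 to MIR526A1 at 1.45 and 1.90.

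The family GCUUCCU, made by MIR516A1, MIR516A2, MIR516B1 and MIR516B2, had 3 of 4 genes lower and the lowest median difference of the families of 3 or more, -0.51. Medians were 3.89 with the antagomir and 2.75 with compound 1. The 3 genes of the miR-517 family, MIR517A (2.02 and 2.38), MIR517B (4.24 on both) and MIR517C (1.89 and 2.05), carry 1 seed on each arm, CUCUAGA and UCGUGCA, and none was lower on the compound 1 array. The family AAGUGCA, made by the miR-519 genes MIR519A1, MIR519A2, MIR519B and MIR519C, had a median difference of 0.077, with its members at 0.73, -1.29, 0 and 0.15.

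The letters AAGUGC lie within the seed of 12 genes of the window. Of these 4 were higher on the compound 1 array, 7 lower and 1 the same, with a median difference of -0.066 and median signals of 3.74 and 3.80. Within the seed AAGUGCU, shared with the pluripotency microRNAs of the miR-302 group, MIR372 (3.69 and 4.02) and MIR373 (5.21 and 5.34) were higher, and the 4 C19MC genes MIR520A (3.00 and 2.91), MIR520C, MIR520D (2.94 and 2.86) and MIR520E (5.16 and 4.98) were lower. MIR520A, MIR520D and MIR520E lay within 1.5-fold, and MIR520C past it. The 5 genes MIR302A to MIR302E had median signals of 3.82 and 4.06 and a median difference of 0.019. In the seed AAAGUGC, MIR519D (4.96 and 4.85) and MIR526B (3.80 and 3.75) stood beside MIR106B of the miR-17 family (7.31 and 7.25) and MIR93 (5.98 and 5.80), which lie in an intron of the replication gene MCM7, and beside the X-linked MIR106A (1.75 and 1.90) and MIR20B (2.47 and 2.95). None of these 6 genes passed 1.5-fold.

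MIR371A, MIR372 and MIR373 all read higher on the compound 1 array, by 0.52, 0.33 and 0.13, and none passed 1.5-fold. The 2 clusters of MIR371A, at 6.16 and 6.68 and at 5.62 and 5.89, were both above the array median on both arrays. Without these 3 genes the median difference of the window was 0.094.

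Named genes next to the window had unlike signals. ZNF331, an imprinted zinc finger gene before C19MC, was at 6.97 and 6.71, and DPRX, a homeobox gene of the early embryo just before it, at 3.74 and 4.38 (0.64), a pair of values that another cluster holds too. On the far side the membrane protein gene MYADM was at 9.49 and 9.48, and the myeloid receptor gene VSTM1 at 5.63 and 5.25. Of 10 named neighbours, 5 on each side, DPRX alone passed 1.5-fold.

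Most measured genes of a list for microRNA processing, which also holds TNRC6, XRN and LIN28 genes, were above the signals of the window. Of the 18 listed genes 10 had a named cluster, 8 of them above the array median on both arrays. DROSHA, DICER1, RAN, PRKRA and AGO1 to AGO4 had none, so much of the core machinery was not measured. With compound 1, 3 read higher and 7 lower, and 0 passed 1.5-fold. The Microprocessor subunit gene DGCR8 was at 7.14 and 6.83 (-0.31), the hairpin exporter gene XPO5 at 10.65 and 10.49, and LIN28B, an embryonic blocker of let-7 processing, at 3.43 and 3.96. Of 13 listed genes of imprinting and silencing 11 were measured and all 11 were above the array median on both arrays. For both lists the background is high, since 78.7% and 79.0% of all protein-coding genes reached the median of the antagomir and compound 1 arrays. Among the 11 were the maintenance methyltransferase DNMT1 (11.26 and 11.10) and its partner UHRF1 (9.82 and 9.73), and 0 of the 11 passed 1.5-fold.

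Markers of cells known to express C19MC were mixed. As background for the counts above the median, 78.7% and 79.0% of all protein-coding genes reached it on the antagomir and compound 1 arrays. Of 19 trophoblast markers 10 were measured, with medians of 5.80 and 5.94, and 6 were above the median on both arrays (PSG4, CSH1, CSH2, VGLL1, TFAP2C and GATA3). TFAP2C (8.17 and 8.0) and GATA3 (7.27 and 7.44), the highest, are also expressed in breast epithelium. Placental genes lay on both sides. CSH1 (6.67 and 6.13), CSH2 (6.65 and 6.92) and PSG4 (5.92 and 6.10) were above the median, while PSG1 (3.11 on both), INSL4 (4.78 and 4.81) and GCM1 (5.19 and 5.26) were below it. Of 11 pluripotent and germ cell markers 10 were measured, with medians of 5.18 and 5.46, and 3 were above the median on both arrays. These 3 were POU5F1 (6.70 and 6.52), a gene with several pseudogenes, DNMT3L (6.04 on both) and SALL4 (5.92 and 5.96). LIN28A (5.52 and 5.62) and DPPA5 (5.66 and 5.59) each passed the median on 1 array only. The pluripotency factor gene NANOG was lower at 2.89 and 3.07, and DPPA2 at 3.52 and 3.13. Of these 20 measured marker entries PSG3 alone passed 1.5-fold (4.56 and 5.31). Luminal or epithelial markers, listed as low in this line, ranged from 4.52 to 9.04 on the antagomir array over 8 measured genes. Of these, 5 were above the median on both arrays, among them KRT19 (9.04 and 8.78) and CLDN3 (8.71 and 8.66). The oestrogen receptor gene ESR1 was below it at 5.31 and 5.21. Markers of leukocytes (1 measured, at 5.18 and 5.48), endothelium (3, with medians of 5.74 and 5.81) and fibroblasts (2, with medians of 3.64 and 3.73) did not pass 1.5-fold in any gene.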

How the data were processed

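For each array the authors deposited a single log2 signal per transcript cluster, with the scale read from its range of 0.37 to 14.20. Log base, background correction and normalization are not stated in the labels. The platform's probe table names 1 gene for 16098 of 53617 clusters and several for 0; the other 37519 stayed unnamed. Symbols, gene types and gene order came from RefSeq for GRCh38.p14. No scaling or filter was applied. A gene with several clusters is given by its brightest cluster over both arrays. Differences are compound 1 minus antagomir. Size thresholds of 1.5-fold and 2-fold were used in place of a test, since each treatment has 1 array; the number of arrays limits the precision. Named are the 8 highest and 5 lowest genes by mean signal, the 6 largest differences each way, all genes past 1.5-fold, copies, seed families of 3 or more, and MIR371A, MIR372 and MIR373. MIR genes, marker lists and rules were chosen with earlier results of these data known. The summary steps were tested on simulated data. Alternatives were 3 scalings, 2 other cluster choices, 2 filters, other thresholds and 3 smaller sets of genes. Tools were Python 3.11.15 with numpy 2.4.6, pandas 2.3.3, matplotlib 3.10.9, and edlib for base differences between hairpins; cyclic loess came from limma 3.58.1 in R 4.3.3.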

Additional observations from a re-analysis of the deposited data

How the results depend on the processing

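No result turned its direction among the values past 1.5-fold, but the shifts under the 3 scalings were too small to turn one. The median difference of 0.12 was 0.049 after cyclic loess (0.039 over the other MIR genes), 0.087 after centring and 0.073 after quantile normalization. It was 0.21 over the 4 genes whose higher value reached the 50th percentile of signal and 0.20 (0.196) over the 2 that reached it on both arrays. Of those 4 genes 0 passed 1.5-fold in either direction. The 4 higher and 4 lower genes became 0 and 2 at 2-fold and 15 and 4 past a log2 difference of 0.32. No share of the other MIR genes past 0.32 is given here, so the 15 and 4 are not read as particular to the window. The quartiles of the difference were -0.093 and 0.40 in the window and -0.13 and 0.27 over the other MIR genes. Those other MIR genes that lay within the window's range of mean signal had -0.15 and 0.30. Against the 75th percentile of each array 0 genes were as bright on either array, and against the median of the other MIR genes 11 were on each. Of 230 single values under scalings and cluster choices, 227 stayed within 1 robust SD of other MIR genes at like signal. This count is no support for the values. Scalings moved each gene by little beside that SD, for instance MIR519B from 0 to -0.11 after cyclic loess, where the SD was 0.36. Most genes have 1 cluster, and both clusters of MIR512-2 and of MIR515-1 hold the same values, so for them cluster choice could change nothing. The 3 exceptions were MIR519A2 with its dimmer cluster (0) or the mean of both (-0.65) and MIR371A with its dimmer cluster (0.26). Cyclic loess turned the sign of MIR498 (0.078 to -0.010) and MIR516A2 (0.094 to -0.0056). No paired analysis was possible because there is 1 array of each kind.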
